A study of Homo sapiens with 15 samples.

Results

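Mesenchymal-state transcription factors are DNA-binding proteins that neuroblastoma cells of a migratory, matrix-producing state hold at higher levels than cells of the noradrenergic state. The 10 described here are PRRX1, FOSL1, FOSL2, RUNX1, RUNX2, SOX9, SNAI2, TWIST1, TWIST2 and NR3C1, taken from a list of names and followed through every probe set that names only that gene. The list was chosen with earlier results of these data known. They are 10 of the 18244 genes on the array and hold 39 of the 45277 probe sets that name 1 gene. Total RNA of 5 established human neuroblastoma lines, namely KELLY, NGP, BE(2)-C, SH-SY5Y and SK-N-AS, had been hybridised to 15 expression arrays, 3 per line. All lines were untreated cells grown in DMEM with 10% FBS, with no genetic change introduced, and ERCC spike-in RNA was added to counted cells at lysis. NGP, BE(2)-C and KELLY carry an amplified MYCN gene, and SK-N-AS and SH-SY5Y do not, from general knowledge of these lines. SH-SY5Y and BE(2)-C are subclones of older lines, each line comes from 1 tumour, and each group is therefore 1 line. The labels do not say that the 3 arrays of a line came from separate cultures, so p-values measure only the spread between these arrays, which may be technical.

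Neuroblastoma arises from the sympathetic lineage of the neural crest, and its cells can occupy a noradrenergic or a mesenchymal state, each kept by its own set of transcription factors. PRRX1 is a homeobox factor of embryonic mesenchyme. FOSL1 and FOSL2 are FOS-family subunits that pair with JUN proteins to form AP-1. RUNX1 and RUNX2 bind DNA with the subunit CBFB and direct blood and bone formation. SOX9 acts in cartilage and migrating neural crest. SNAI2, TWIST1 and TWIST2 drive the epithelial-mesenchymal transition (EMT), in which cells lose junctions and gain motility. NR3C1 is the glucocorticoid receptor, a hormone-activated factor. SK-N-AS is commonly counted among the lines with mesenchymal traits, and the other 4 among the more noradrenergic ones.

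RefSeq promoter entries (assembly GRCh38.p14) matched 6 of the 10 genes, 13 entries in all: 7 for NR3C1, 2 for RUNX2 and 1 each for PRRX1, FOSL2, RUNX1 and TWIST2. The 250 bases before the start site are shown for RUNX2 and TWIST2, as examples of factors with a probe set high in SK-N-AS alone, and for the 1 NR3C1 entry that holds an AP-1 motif. Capitals mark motif letters found on either strand.
RUNX2, distal entry, chr6:45328080-45328329, plus strand: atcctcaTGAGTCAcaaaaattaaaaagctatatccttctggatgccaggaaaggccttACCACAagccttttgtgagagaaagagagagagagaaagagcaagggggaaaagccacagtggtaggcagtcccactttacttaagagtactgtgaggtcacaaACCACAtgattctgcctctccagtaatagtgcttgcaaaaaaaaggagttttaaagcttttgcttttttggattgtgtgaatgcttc
RUNX2, proximal entry, chr6:45422025-45422274, plus strand: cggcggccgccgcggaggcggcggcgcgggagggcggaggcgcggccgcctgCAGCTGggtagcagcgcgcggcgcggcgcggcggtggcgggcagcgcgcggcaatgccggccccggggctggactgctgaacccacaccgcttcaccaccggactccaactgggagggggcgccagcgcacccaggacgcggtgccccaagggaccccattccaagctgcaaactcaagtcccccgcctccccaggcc
TWIST2, chr2:238847835-238848084, plus strand: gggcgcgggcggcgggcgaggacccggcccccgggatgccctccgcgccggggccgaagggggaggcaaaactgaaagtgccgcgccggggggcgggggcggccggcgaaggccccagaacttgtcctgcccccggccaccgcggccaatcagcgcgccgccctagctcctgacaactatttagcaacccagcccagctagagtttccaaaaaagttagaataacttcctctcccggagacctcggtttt
NR3C1, 1 of 7 entries, chr5:143434810-143435059, minus strand: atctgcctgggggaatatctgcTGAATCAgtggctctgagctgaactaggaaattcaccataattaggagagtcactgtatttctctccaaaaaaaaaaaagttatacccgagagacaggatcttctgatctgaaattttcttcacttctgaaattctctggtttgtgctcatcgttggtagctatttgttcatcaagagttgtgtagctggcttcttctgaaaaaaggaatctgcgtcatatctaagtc

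The RUNX2 distal stretch has 41.6% G and C with 0 CpG dinucleotides, and the proximal stretch has 78.0% with 34. For TWIST2 the figures are 68.4% and 26, against medians of 58.0% and 11 over all 35116 entries. The search covered 7 motifs on both strands, none of which contains another. The AP-1 letters TGANTCA stood in 2 of the 13 entries and in 6.57% of all entries. In the RUNX2 distal entry they begin at -243 from the start site. The letters TGTGGT, which RUNX proteins bind, stood in 2 of the 13 and in 11.0% of all. They occur at -191 and -87 of the same RUNX2 entry, on the opposite strand. Among E-boxes, which bHLH and SNAI proteins bind, CAGCTG was found in 3 of the 13 entries (14.0% of all). The variant CATCTG was found in 1 entry (12.2% of all) and the variant CAGGTG likewise in 1 (17.5% of all). The glucocorticoid response element letters AGAACA were found in 0 of the 13 (12.4% of all), and the SOX letters ACAAAG also in 0 (13.7% of all). At least 1 of the 7 motifs stood in 6 of the 13 entries and in 58.3% of all entries. These matches describe the letters in the window and say nothing of binding.

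The deposited intensities had not been brought to a common total. Each array had a median ERCC level of 8.85 to 9.12 (log2), but an overall median intensity anywhere from 51.9 to 126. Relative to SK-N-AS, the array median over tested genes was lower by 1.33 log2 units in SH-SY5Y, 1.11 in KELLY, 0.82 in NGP and 0.20 in BE(2)-C. Results are therefore read from the deposited intensities first and, beside them, after every array was centred on its own median. In bulk samples, fewer cells of a type and less RNA per cell cannot be told apart. The ACTB control, read at its 3′ and its 5′ end as a measure of RNA integrity, gave a log2 gap of 0.71 ± 0.06 for SK-N-AS, while the remaining lines gave 0.97 ± 0.07 to 1.23 ± 0.08 (SD, n = 3 each). Its part in the results was not tested. MYCN stood at 78.8 ± 6.30 in SK-N-AS, at 152 ± 30.2 in SH-SY5Y and between 9363 ± 163 and 13689 ± 526 in the 3 amplified lines. MYC stood at 1788 ± 128 and 1746 ± 145 in the first 2 lines and at 81.0 ± 12.7 or less in the others.

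Sympathetic neuroblast markers set the lines apart as well. In SH-SY5Y, NGP, BE(2)-C and KELLY all 7 measured neuroblast markers lay above 80.6, the median of all values, and none was at 0. In SK-N-AS 6 of 7 did, with CHGA, a secretory granule protein, at 53.3 ± 8.22 against 5858 ± 491 or more elsewhere. Their summed intensity was 13295 to 14911 per SK-N-AS array and 24050 to 49224 on the arrays of the other lines. Most of the SK-N-AS sum was HAND2, at 11583 ± 772. By the rule given below, 4 of the 7 were called lower in SK-N-AS than in all 4 other lines on both scales, and 0 higher. They were CHGA, STMN2, DBH and PHOX2A. Among all tested genes 2.12% were called lower and 12.6% higher, and 5.56% and 5.61% after centring. Mesenchymal or fibroblast markers summed to 41195 to 45186 in SK-N-AS, with 7 of 8 above the median, and to 976 to 7260 elsewhere, with 4 or 5 of 8. The SK-N-AS sum was carried by VIM, COL3A1 and CD44. Of the 7 tested, VIM, COL1A1, COL3A1 and CD44 were called higher on both scales and 0 lower, beside the same shares of all genes. FN1 was not called, and THY1 and PDGFRB had their highest mean in BE(2)-C. Markers of other cell types also moved with SK-N-AS. The 6 epithelial markers summed to 10459 to 11599 there and to 249 to 720 elsewhere, carried by the keratins KRT8 and KRT18, while EPCAM and CDH1, which define epithelium, did not reach the median in any line. Of 5 leukocyte markers only PTPRC (CD45) passed the median, in SK-N-AS alone, at 320.0 ± 24.6 against 14.7 ± 2.17 or less, and CD3E, CD14, ITGAM and LYZ stayed below it. Endothelial markers summed to 347 to 419 in SK-N-AS and 166 to 553 elsewhere, and Schwann cell markers to 268 to 279 and 139 to 475. The part of these markers in the results below was not tested.

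SK-N-AS held 7 of the 10 factors at higher levels than all 4 other lines: PRRX1, FOSL1, FOSL2, RUNX1, SNAI2, TWIST2 and NR3C1. TWIST1 went the other way and was lowest in SK-N-AS. SOX9 was shared with BE(2)-C and KELLY, and RUNX2 split between a flat and a sharply SK-N-AS-high probe set. A gene was represented by its probe set with the highest mean log2 level and tested where its highest line mean reached the median of all values. A difference was called at an adjusted p under 0.05 in limma, adjusted over all 12721 genes tested, with a log2 difference of at least 1. Of the 10 factors 9 were tested. FOSL1, RUNX1 and TWIST2 passed the filter through SK-N-AS alone and so had to differ to some degree, while the other 6 passed it in another line too. Among tested genes, 12.6% were called higher in SK-N-AS than in all 4 other lines and 2.12% lower. Because the factors and gene lists were chosen with earlier results known, such shares only give a scale. They are no test of an excess, here or below. Without the filter, the same 7 of 10 factors were called higher and TWIST1 lower, where 9.07% and 1.49% of 18244 genes were called. On centred arrays 6 were higher, where 5.61% of genes were, and TWIST1 was lower, where 5.56% were. SNAI2 was the factor that lost its call.

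**Figure D1:**
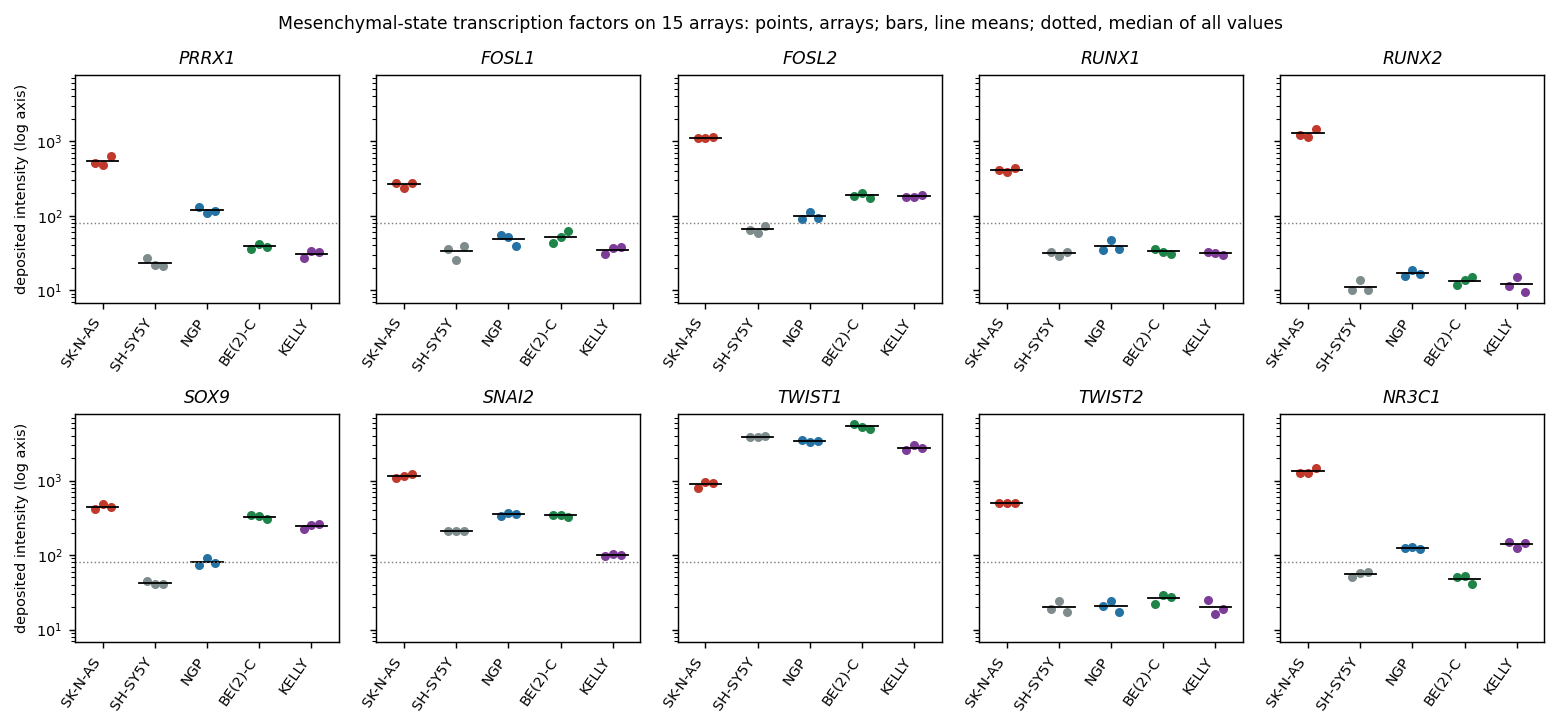
Deposited intensity (vertical log axis) of each factor on the 15 arrays, by cell line (horizontal axis); points are arrays, bars line means and the dotted line the median of all values, 80.6. RUNX2 is drawn from its bright probe set. The 3 SK-N-AS points lie above all others in every panel but TWIST1, where they lie below all others, and in the SOX9 panel BE(2)-C comes close to them.

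PRRX1 was highest in SK-N-AS and second in NGP. The 3 SK-N-AS arrays read 505, 484 and 641 and the NGP arrays 133, 107 and 116. BE(2)-C arrays read 36.1, 42.2 and 38.4, KELLY arrays 26.8, 33.8 and 32.5, and SH-SY5Y arrays 26.9, 21.6 and 20.9. SK-N-AS did not overlap with any other line, and NGP stood clear of the remaining 3. SK-N-AS exceeded NGP by 2.18 log2 units (SE 0.13, 4.53-fold) and SH-SY5Y by 4.49 (22.5-fold), with an adjusted p of at most 5.18e-14 over the 4 contrasts. NGP exceeded BE(2)-C by 1.58 log2 units (SE 0.13, adjusted p = 4.48e-11). After centring, the gap to NGP was 1.36 log2 units (SE 0.12, adjusted p = 1.50e-08).

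Of 12 matrix and fibroblast genes linked to PRRX1 or to fibroblasts, 9 were tested. In SK-N-AS 4 were higher than in all other lines on both scales, beside 12.6% of all tested genes and 5.61% after centring. COL3A1, the chain of fibrillar type III collagen, stood at 17526 ± 739 in SK-N-AS against 164 ± 12.2 or less elsewhere (SD, n = 3; adjusted p at most 1.95e-25). COL6A3, a type VI collagen chain, stood at 3996 ± 214 in SK-N-AS and next at 520.3 ± 2.59 in KELLY. COL5A1 stood at 839 ± 39.3 and next at 132 ± 6.58 in BE(2)-C. LUM, the proteoglycan lumican, stood at 4976 ± 559.8 in SK-N-AS, followed by BE(2)-C at 1055 ± 41.5. The list's median difference of SK-N-AS from the mean of the other lines was 2.55 log2 units, beside 0.77 over all tested genes, and 1.69 beside -0.10 after centring. NGP, the line second in PRRX1, was not second in any of these 4. Of the 5 tested but uncalled genes, 4 had their highest mean in another line on the deposited scale, and are named after their values were seen. The surface protein THY1 stood at 2005 ± 46.9 in BE(2)-C and 662 ± 45.2 in SK-N-AS, the receptor PDGFRB at 708 ± 46.0 and 428 ± 21.5, and the cross-linking enzyme LOX at 135 ± 9.79 and 131 ± 2.20. The secreted glycoprotein FSTL1 stood at 587 ± 66.2 in SH-SY5Y, above the 503 ± 33.5 of SK-N-AS.

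Both FOS-family factors were higher in SK-N-AS than in each other line. FOSL1 read 279, 238 and 273 on the SK-N-AS arrays. It read 35.6, 25.5 and 38.8 in SH-SY5Y, 54.5, 51.7 and 39.2 in NGP, 43.4, 51.4 and 62.2 in BE(2)-C and 30.4, 36.6 and 38.3 in KELLY. SK-N-AS stood clear of all others. Below it SH-SY5Y overlapped with KELLY and NGP with BE(2)-C, while the first pair lay under the second without overlap, by less than the fold threshold. After centring BE(2)-C was the lowest of these 4, by 0.36 to 0.51 log2 units. The smallest gap was 2.32 log2 units, to BE(2)-C (SE 0.16, adjusted p = 1.09e-12), and 1.61 after centring, to NGP (SE 0.15, adjusted p = 2.46e-08).

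FOSL2 divided the lines further. Its SK-N-AS arrays read 1112, 1093 and 1127. BE(2)-C read 186, 202 and 174, KELLY 177, 178 and 192, NGP 90.7, 112 and 92.2, and SH-SY5Y 64.3, 59.2 and 72.8. SK-N-AS was clear of all, BE(2)-C and KELLY overlapped, and NGP and SH-SY5Y each formed a separate lower step. SK-N-AS exceeded BE(2)-C by 2.56 log2 units (SE 0.10, 5.91-fold, adjusted p = 5.92e-18) and SH-SY5Y by 4.07 (16.8-fold). SH-SY5Y lay 1.51 log2 units below BE(2)-C (adjusted p = 1.85e-13) and 1.47 below KELLY (adjusted p = 1.27e-12). After centring, the nearest line was KELLY, 1.49 log2 units below SK-N-AS (SE 0.08, adjusted p = 5.61e-12), and the SH-SY5Y gap to BE(2)-C shrank to 0.37.

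The list of AP-1 partners held other FOS-family subunits, namely FOS and FOSB, beside JUN, ATF, BATF and MAF proteins, so not all pair with FOSL1 or FOSL2. Of the 12 listed, 9 were tested and 1 was higher in SK-N-AS than in all other lines, beside 12.6% of all tested genes. It was the small MAF protein MAFF, at 431 ± 20.0 in SK-N-AS and 208 ± 4.17 in BE(2)-C (adjusted p at most 3.33e-10). After centring MAFF was not called, and JUN and FOSB, core AP-1 subunits, were called lower, as were 5.56% of all tested genes. JUN was brightest in NGP, at 6609 ± 126, followed by KELLY at 2783 ± 93.0, BE(2)-C at 1944 ± 128, SK-N-AS at 1036 ± 23.4 and SH-SY5Y at 827 ± 34.7. The list's median difference was 0.28 log2 units beside 0.77 for all genes, and -0.59 beside -0.10 after centring.

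Genes that AP-1 is known to activate included some of the widest gaps. Of 12 listed targets 8 were tested, and 5 were higher in SK-N-AS on both scales, beside 12.6% of all tested genes and 5.61% after centring. CD44, a hyaluronan receptor, stood at 5769 ± 231 in SK-N-AS against 58.6 ± 7.02 or less elsewhere (adjusted p at most 1.85e-24). CXCL8, a neutrophil chemokine, stood at 3290.3 ± 238 against 33.7 ± 2.31 or less, and LOXL2, a collagen cross-linking enzyme, at 2084 ± 87.9 against 64.1 ± 13.3 or less. PLAU, the urokinase protease, stood at 769.7 ± 26.9 against 44.3 ± 3.36 or less. CD44, CXCL8, LOXL2 and PLAU passed the filter through SK-N-AS alone and so had to differ to some degree. The median difference of the 8 tested targets, these among them, was 3.69 log2 units on the deposited and 2.83 on the centred scale. CCND1, DUSP1 and HMGA1, tested but not called, had their highest means in another line and are named after their values were seen. CCND1 stood at 6142 ± 259 in BE(2)-C and 2036 ± 75.7 in SK-N-AS. In NGP DUSP1 stood at 3048 ± 332 and HMGA1 at 3048 ± 233, above the 1611 ± 43.4 and 2518 ± 47.4 of SK-N-AS. MMP1, MMP3, MMP9 and IL6, also AP-1 targets, did not reach the filter in any line.

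RUNX1 was close to the floor of the array outside SK-N-AS. Its SK-N-AS arrays read 408, 391 and 432. SH-SY5Y read 32.8, 28.4 and 32.4, NGP 34.8, 47.2 and 35.8, BE(2)-C 35.7, 32.7 and 31.1, and KELLY 33.0, 31.3 and 29.5. Among the low lines BE(2)-C overlapped with each of the other 3, SH-SY5Y overlapped with KELLY, and NGP lay above both of these without overlap, by 0.31 log2 units each (adjusted p = 0.0226 and 0.0293). SK-N-AS exceeded NGP by 3.37 log2 units (SE 0.12, 10.3-fold) and SH-SY5Y by 3.68 (12.8-fold), with an adjusted p of at most 2.14e-18. After centring SH-SY5Y exceeded BE(2)-C by 1.05 log2 units (adjusted p = 7.77e-08). On the deposited scale this difference was -0.09 (adjusted p = 0.499), with both lines near the floor, and their array medians differed by -1.13. Of 7 RUNX1 probe sets 2 were tested, and the second gave 481, 389.9 and 503 in SK-N-AS and at most 24.1 on any other array. The remaining 5 did not reach the filter in any line, and 1 further probe set that names RUNX1 with another gene was left out. Without any 1 of the SK-N-AS arrays a dimmer probe set had the highest mean and stood for RUNX1, and 6 factors were then called higher in SK-N-AS.

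RUNX2 depended on the probe set. Probe set 11725180_a_at read 1225, 1141 and 1456 on the SK-N-AS arrays. Elsewhere it read 9.93, 13.7 and 9.95 in SH-SY5Y, 15.5, 18.5 and 16.6 in NGP, 11.6, 13.6 and 15.2 in BE(2)-C and 11.3, 15.2 and 9.37 in KELLY. This was the widest gap of any tested probe set of the 10 factors, from 6.15 log2 units to NGP (SE 0.17, 71.1-fold) to 6.71 to SH-SY5Y (105-fold), with an adjusted p of at most 1.70e-18 over all 29563 probe sets tested. After centring the gaps were 5.27 to 6.20 log2 units. Probe set 11738448_a_at read 69.1, 41.4 and 45.8 in SK-N-AS and 32.7 to 57.9 on the other 12 arrays. It overlapped between lines, lay below the filter in every line and was not tested. Because its mean log2 level was the higher of the 2, it represented RUNX2 at the gene level, and RUNX2 does not enter the gene counts above.

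Partners of the RUNX proteins gave 0 genes called higher in limma, where 12.6% of genes were. Of 8 listed, 7 were tested, and TLE1, a corepressor, was called lower, at 72.4 ± 1.14 in SK-N-AS against 158 ± 12.3 in KELLY and up to 1052 ± 57.1 in BE(2)-C (adjusted p at most 4.54e-12). At an unadjusted p under 0.05 with no fold threshold, 1 was higher than in all 4 other lines and 1 lower, beside 41.1% and 4.47% of all genes. The higher one, the corepressor RUNX1T1, stood at 1665 ± 131 in SK-N-AS and next at 1094 ± 167 in NGP, 0.61 log2 units below (adjusted p at most 6.84e-06). After centring 0 were higher and 2 lower at the unadjusted threshold, beside 17.9% and 21.8% of all genes. The list's median difference was 0.79 log2 units, close to the 0.77 of all genes. The obligate subunit CBFB, named after its values were seen, was brightest in BE(2)-C, at 2644 ± 69.8, followed by SK-N-AS at 2082 ± 166, NGP at 844 ± 182, KELLY at 665 ± 139 and SH-SY5Y at 526 ± 191. After centring CBFA2T2, another corepressor, was also called lower. Of 10 RUNX targets 6 were tested and 2 were higher: COL1A1, a type I collagen chain, at 659 ± 45.1 against 139 ± 20.1 or less, and SPP1, the bone protein osteopontin, at 122 ± 4.90 against 39.5 ± 1.36 or less. SPP1 passed the filter through SK-N-AS alone, and it lost its call after centring, where 5.61% of all tested genes were called higher.

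SOX9 was not called higher in SK-N-AS than in all other lines. The SK-N-AS arrays read 417, 479 and 448, the BE(2)-C arrays 344, 339 and 302 and the KELLY arrays 226, 256 and 259.8. NGP arrays read 73.4, 90.9 and 77.5, and SH-SY5Y arrays 44.2, 41.4 and 40.5. The lines thus formed a high group of 3 and a low group of 2, with no overlap between neighbours in the order. SK-N-AS exceeded BE(2)-C by 0.45 log2 units (SE 0.10, 1.36-fold, adjusted p = 2.05e-04) and KELLY by 0.85 (SE 0.10, adjusted p = 8.86e-09), both under the fold threshold. KELLY exceeded NGP by 1.61 log2 units (SE 0.10, adjusted p = 1.92e-13).

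The order at the top of the SOX9 series turned with the scale. After centring, KELLY exceeded SK-N-AS by 0.26 log2 units (SE 0.08, adjusted p = 0.0083) and SK-N-AS exceeded BE(2)-C by 0.25 (adjusted p = 0.0135). All 3 SOX9 probe sets were tested, and on each the 3 lines SK-N-AS, BE(2)-C and KELLY were above NGP and SH-SY5Y on the deposited scale. None was called higher in SK-N-AS than in all other lines. Of 10 SOX9 relatives and targets 6 were tested and 1 was called higher, beside 12.6% of all tested genes. It was CCN2, a matrix-associated growth factor, at 818 ± 60.3 in SK-N-AS against 39.8 ± 3.01 or less (adjusted p at most 3.07e-20). CCN2 passed the filter through SK-N-AS alone and so had to differ to some degree. Of the cartilage genes on the list, SOX5, SOX8, COL2A1 and ACAN did not reach the filter, and SOX6, COL9A1, COL11A2 and MATN3 passed it narrowly, with highest line means of 84.4 ± 7.46 to 94.5 ± 11.6, and were not called.

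SNAI2 was graded over the lines. The SK-N-AS arrays read 1068, 1138 and 1209.9, the NGP arrays 338, 368 and 354 and the BE(2)-C arrays 347, 347 and 325. Below them came SH-SY5Y at 213, 209.8 and 211 and KELLY at 96.4, 103 and 100.1. SK-N-AS stood alone at the top and KELLY alone at the bottom, with NGP and BE(2)-C overlapping. SK-N-AS exceeded NGP by 1.68 log2 units (SE 0.08, 3.21-fold, adjusted p = 2.14e-16) and KELLY by 3.50 (11.3-fold). KELLY was called lower than all 4 other lines, as were 1.74% of genes. After centring, the gap of SK-N-AS to NGP was 0.87 log2 units (SE 0.06, adjusted p = 2.44e-10), under the fold threshold, and that of BE(2)-C to KELLY was 0.84, so neither call against all 4 lines held. The share of genes called lower in KELLY was then 0.912%.

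The TWIST paralogues, a closely related pair of bHLH factors, ran in opposite directions. TWIST2 read 496, 504 and 498 on the SK-N-AS arrays. It read 19.1, 23.9 and 17.1 in SH-SY5Y, 20.7, 23.8 and 17.3 in NGP, 22.2, 28.8 and 27.6 in BE(2)-C and 24.7, 15.9 and 18.8 in KELLY. SK-N-AS exceeded BE(2)-C by 4.21 log2 units (SE 0.16, 18.5-fold) and KELLY by 4.61 (24.4-fold), with an adjusted p of at most 6.88e-18, and by at least 3.25 after centring. The second TWIST2 probe set was not tested. It read 54.4, 44.1 and 57.0 in SK-N-AS and 21.2 to 32.6 on the other arrays, without overlap.

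TWIST1 was bright in the 4 lines where TWIST2 lay below the filter. Its arrays read 5703, 5290.3 and 4960.0 in BE(2)-C, 3825, 3838 and 3989 in SH-SY5Y, 3469, 3246 and 3381 in NGP and 2538, 3016 and 2725 in KELLY. In SK-N-AS they read 797, 967 and 915. SK-N-AS lay below every other line without overlap, though at a level still above the filter. The difference of SK-N-AS from KELLY was -1.63 log2 units (SE 0.08, 3.09-fold, adjusted p = 9.60e-16) and that from BE(2)-C -2.58 (5.96-fold). After centring, the differences ran from -2.73 to -3.46 log2 units (adjusted p at most 8.53e-16). TWIST1 thus moved against the median shift of all genes, and its gap widened when that shift was removed. Among the other lines, BE(2)-C was above SH-SY5Y by 0.45 log2 units on the deposited scale and below it by 0.68 on the centred scale.

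The bHLH partners of the TWIST proteins gave 0 called genes of 9 tested in either direction on the deposited scale, in limma. The widest gaps were those of 2 of them: ID1, an inhibitor of bHLH dimers, differed by 1.76 log2 units between SK-N-AS and the mean of the other lines, and HAND1, a bHLH factor of the sympathetic lineage, by -1.65. At an unadjusted p under 0.05 with no fold threshold, 3 were higher than in all 4 other lines and 1 was lower, beside 41.1% and 4.47% of all genes, and after centring 1 was higher and 3 were lower, beside 17.9% and 21.8%. HAND1 was called lower after centring. Of 10 other EMT factors 5 were tested and 0 were called in limma, with 2 higher and 0 lower at the unadjusted threshold, and 0 and 1 after centring. SNAI1, the paralogue of SNAI2, stood at 318 ± 33.1 in SK-N-AS, followed by BE(2)-C at 254 ± 17.0, NGP at 248 ± 37.8, KELLY at 136 ± 18.7 and SH-SY5Y at 77.3 ± 9.60. PRRX2, the paralogue of PRRX1, stood at 318 ± 21.0 in SK-N-AS and next at 226 ± 21.5 in KELLY. ZEB1 was called lower in SK-N-AS after centring only, at 1124 ± 58.7 against 917 ± 49.4 in SH-SY5Y and up to 2416 ± 80.0 in BE(2)-C on the deposited scale. Of 12 EMT targets 6 were tested and 2 were higher on both scales, VIM, the mesenchymal filament vimentin, at 17794 ± 1163 against 4052 ± 99.3 or less, and CLDN4, an epithelial junction protein, at 919 ± 57.5 against 140.5 ± 6.40 or less. The first is a gene that rises in EMT and the second one that falls. Among all tested genes 12.6% were called higher on the deposited scale and 2.12% lower, and 5.61% and 5.56% after centring.

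**Figure D2:**
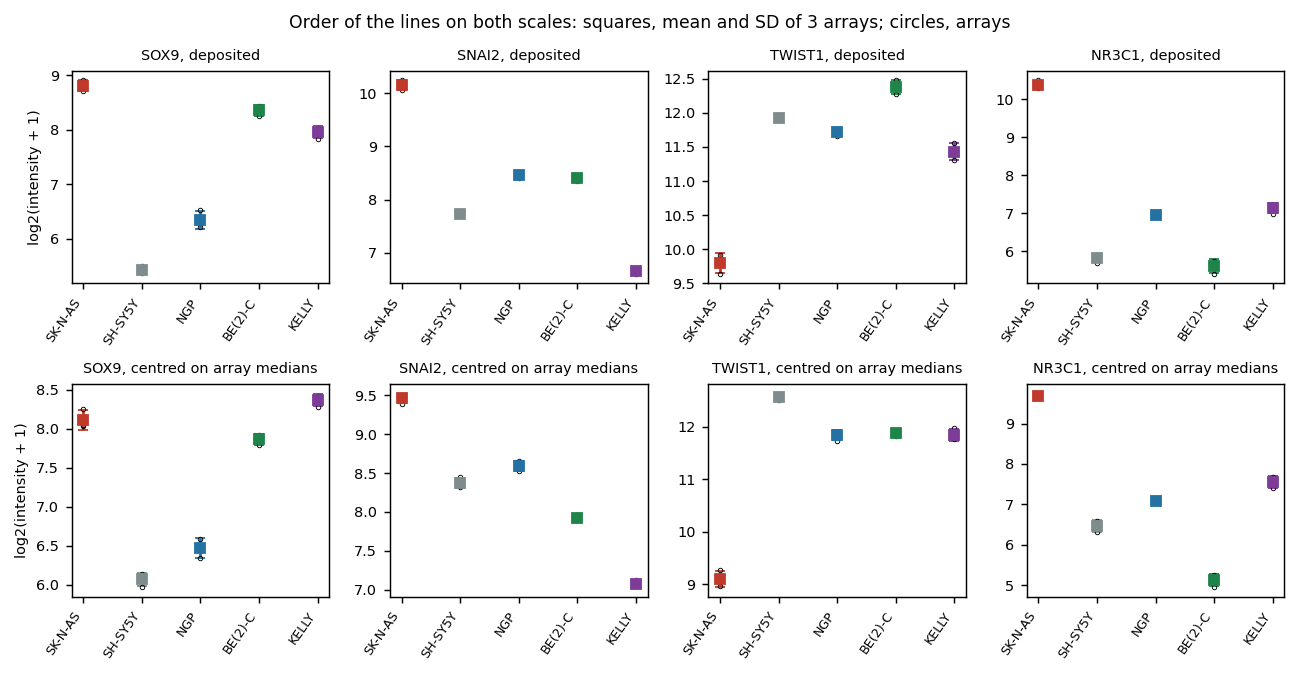
Level of SOX9, SNAI2, TWIST1 and NR3C1 (vertical axis, log2(intensity + 1)) by line on the deposited scale (top row) and on centred arrays (bottom row); squares are means, bars the SD of 3 arrays and circles single arrays. SK-N-AS is highest for SNAI2 and NR3C1 and lowest for TWIST1 on both scales, while SOX9 is highest in SK-N-AS on the deposited scale and in KELLY after centring.

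NR3C1 was the factor with the most probe sets, and all of them gave SK-N-AS the highest level. On its leading probe set the SK-N-AS arrays read 1281, 1268 and 1451. KELLY read 149, 125 and 146, NGP 124, 126 and 119, SH-SY5Y 50.9, 57.5 and 58.3, and BE(2)-C 50.6, 52.6 and 41.4. KELLY and NGP overlapped, as did SH-SY5Y and BE(2)-C, and the 2 pairs were apart. SK-N-AS exceeded KELLY by 3.24 log2 units (SE 0.10, 9.48-fold, adjusted p = 8.56e-20) and BE(2)-C by 4.77 (27.2-fold). NGP exceeded SH-SY5Y by 1.14 log2 units (SE 0.10, adjusted p = 3.08e-10). After centring, SK-N-AS exceeded KELLY by 2.13 log2 units (SE 0.09), and BE(2)-C was called lower than all 4 other lines, as were 1.41% of genes. SH-SY5Y then exceeded BE(2)-C by 1.34 log2 units. On the deposited scale this difference was 0.21 (adjusted p = 0.0583), with both lines dim, and their array medians differed by -1.13.

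The receptor's cofactors gave 1 called gene. Of 12 chaperones, coactivators and ligand enzymes 9 were tested and 1 was called higher, beside 12.6% of all tested genes. It was HSD11B1, the enzyme that regenerates active glucocorticoid, at 308 ± 22.3 in SK-N-AS against 28.3 ± 2.79 or less (adjusted p at most 6.18e-16). HSD11B1 passed the filter through SK-N-AS alone and so had to differ to some degree. The chaperone partner STIP1, at 1917 ± 117 against 1347 ± 35.6 or less, and the coactivator NCOA1, at 435 ± 13.4 against 275 ± 3.44 or less, were also highest in SK-N-AS on the deposited scale, with their smallest gaps under the fold threshold (0.51 and 0.66 log2 units). Both were named after their values were seen. The list's median difference was 0.62 log2 units, beside 0.77 for all genes. Of 12 glucocorticoid receptor targets 10 were tested and 2 were higher on both scales, beside 12.6% of all tested genes and 5.61% after centring. CEBPD, a transcription factor of acute-phase responses, stood at 9045 ± 704 in SK-N-AS, 938 ± 35.7 in NGP and 40.0 ± 2.80 or less in the other 3 lines. ERRFI1, an inhibitor of the EGF receptor, stood at 1423 ± 76.4 against 271 ± 1.66 or less. TSC22D3 (GILZ), a widely used receptor target, was called lower after centring, with SK-N-AS at 307 ± 3.69, SH-SY5Y at 325 ± 25.2 and BE(2)-C at 1638 ± 125 on the deposited scale. The targets' median difference was 0.77 log2 units and -0.10 after centring, equal to that of all genes at this precision. Hormone in the medium was not measured.

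Over probe sets, 32 of the 39 were tested and 28 were higher in SK-N-AS than in all 4 other lines, beside 13.3% of the 29563 tested. After centring it was 20, beside 5.43%. Of the 28, 16 passed the filter through SK-N-AS alone and so had to differ to some degree: all of FOSL1, RUNX1, RUNX2 and TWIST2, with 1 of PRRX1, 2 of FOSL2 and 3 of NR3C1. Of the 15 tested probe sets that passed it in another line too, 12 were higher. Without the filter 28 of 39 were higher and 1 was lower, beside 9.19% and 1.11% of the 45277 that name 1 gene. Probe sets of 1 gene share its RNA and often its sequence, so they are not independent measures. NR3C1 gave 10 of 10 on both scales. FOSL1 gave 6 of 6 on the deposited and 2 of 6 on the centred scale, FOSL2 5 of 5 and 3, and PRRX1 2 of 2 and 1. RUNX1 gave 2 of 2, and TWIST2 and RUNX2 1 of 1, on both scales. SNAI2 gave 1 of 1 and 0, SOX9 0 of 3, and TWIST1 0 of 1. The single TWIST1 probe set was lower than in all other lines on both scales, as were 1.65% of probe sets on the deposited and 4.93% on the centred scale. Within a gene, the smallest gap of SK-N-AS to another line ran from 1.53 to 2.95 log2 units over the FOSL1 probe sets, from 1.03 to 2.81 over those of FOSL2 and from 2.49 to 3.24 over those of NR3C1.

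**Figure D3:**
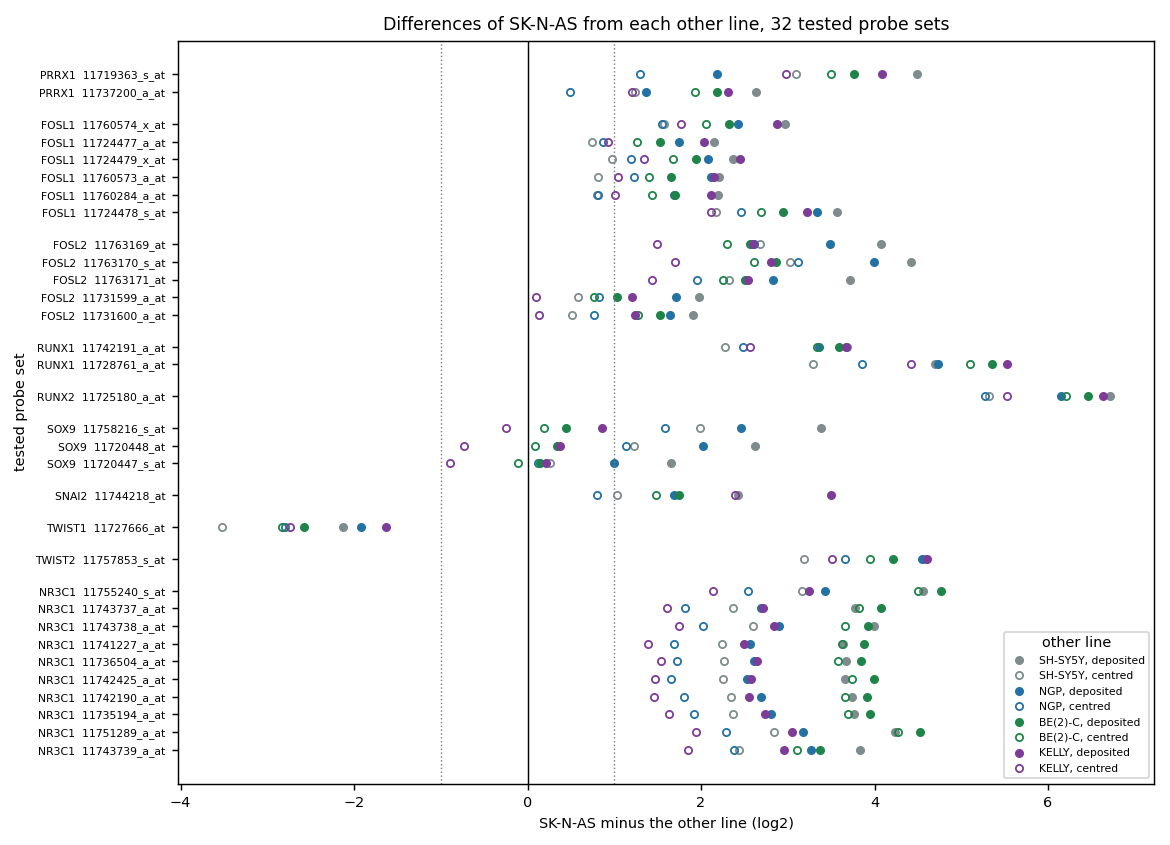
Log2 difference of SK-N-AS from each other line (horizontal axis) for the 32 tested probe sets (vertical axis, grouped by gene); colour gives the other line, filled points the deposited scale and open points arrays centred over probe sets, and dotted lines mark 1 and -1. Points lie to the right of 0 for all deposited values but those of TWIST1, and the RUNX2 probe set lies farthest right, at 6.15 to 6.71.

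Most of the called differences involved SK-N-AS. Over all 10 pairs of lines 50 of 90 contrasts were called, beside 37.7% for all tested genes, and 49 after centring, beside 20.8%. Of the 36 contrasts of SK-N-AS with another line over the 9 tested factors, 34 were called, beside 48.1% over all tested genes, and 33 after centring, beside 27.5%. Of the 54 contrasts between the other lines, 16 were called, beside 30.8%, and again 16 after centring, beside 16.4%. In these 6 pairs PRRX1 was higher in NGP than in each of the others, SOX9 was higher in BE(2)-C and KELLY than in NGP and SH-SY5Y, and SNAI2 was lower in KELLY than in the other 3. NR3C1 was higher in NGP and KELLY than in BE(2)-C on both scales. When the lines were ordered by level, 12 of 36 neighbouring pairs did not differ beyond their spread (adjusted p of 0.05 or more), and 11 after centring. They lay among the 4 lines other than SK-N-AS. For RUNX1 and TWIST2 no neighbours among those 4 differed on the deposited scale (adjusted p from 0.0543 to 0.974). Apart from these, BE(2)-C and NGP did not differ for FOSL1 (adjusted p = 0.524) and SNAI2 (0.495), KELLY and SH-SY5Y for FOSL1 (0.615), BE(2)-C and KELLY for FOSL2 (0.714), and KELLY and NGP (0.116) and SH-SY5Y and BE(2)-C (0.0583) for NR3C1.

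The factors were also compared by MYCN class. The count that separated NGP, BE(2)-C and KELLY from SK-N-AS and SH-SY5Y in all 6 contrasts was 0 in limma, in either direction and on both scales, where 0.684% of genes were called higher in the amplified lines and 0.346% lower, and 0.558% each way after centring. At such shares a count of 0 among 9 genes says nothing particular about the factors. At an unadjusted p under 0.05 with no fold threshold it was also 0 on both scales. Of all genes 3.58% were then higher in the amplified lines and 1.28% lower, and 6.11% and 5.48% after centring. This count too says nothing particular about the factors. SH-SY5Y, which lacks amplification as SK-N-AS does, was lowest of all lines for PRRX1, FOSL2 and SOX9 at that unadjusted threshold, as were 41.6% of all genes. After centring it was lowest for SOX9 alone of the 9, as were 7.59% of all genes. No factor was called highest in a line other than SK-N-AS on either scale (0 of 9 in limma). Among all genes 0.307% were highest in SH-SY5Y and 0.472% in KELLY, and 1.67% in NGP with 3.46% in BE(2)-C. After centring these shares were 0.943%, 1.06%, 1.86% and 1.11%. At the unadjusted threshold TWIST1 was highest in BE(2)-C on the deposited scale, as were 22% of all genes. On the centred scale TWIST1 was highest in SH-SY5Y, as were 9.48% of all genes, and SOX9 in KELLY, as were 9.89%. At that threshold PRRX1, FOSL1, RUNX1 and NR3C1 were lowest in BE(2)-C after centring, as were 12.1% of all genes. On the deposited scale 0 factors were lowest there, beside 1.53%.

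Among 24 other transcription factors assigned to the mesenchymal state, 20 were tested. Of these, 7 were higher in SK-N-AS and 1 was lower, beside 12.6% and 2.12% of all tested genes. IRF1, an interferon-response factor, stood at 777 ± 30.8 in SK-N-AS against 77.7 ± 6.47 or less elsewhere. BHLHE41, a clock-linked repressor, stood at 446 ± 11.4 and next at 48.7 ± 3.12, and TBX18, a T-box factor of mesenchyme, at 466 ± 53.1 and next at 60.0 ± 2.54. IRF1, BHLHE41 and TBX18 passed the filter through SK-N-AS alone and so had to differ to some degree. SMAD3, the mediator of TGF-beta signals, stood at 2135 ± 143 and next at 405 ± 24.6 in BE(2)-C. AEBP1, a collagen-binding protein, was the lower one, at 101 ± 6.26 against 247 ± 22.6 or more (adjusted p at most 1.71e-12). After centring 5 stayed higher and 1 lower, beside 5.61% and 5.56% of all tested genes. The list's median difference was 1.71 log2 units beside 0.77 for all genes, and 0.84 beside -0.10 after centring, while the 9 tested factors described here had 3.18 and 2.31.

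The opposing noradrenergic factors, often called adrenergic, gave 3 lower and 1 higher of 10 tested, beside 2.12% and 12.6% of all tested genes. TFAP2B stood at 23.4 ± 4.83 in SK-N-AS against 893 ± 60.9 in NGP and up to 6193 ± 31.0 in BE(2)-C (adjusted p at most 6.82e-23). PHOX2A, a homeobox factor of noradrenergic neurons, stood at 302 ± 17.9 against 1203 ± 56.3 or more, and ISL1, a LIM homeobox factor, at 441 ± 33.5 against 972 ± 32.7 or more. TBX2, a T-box repressor, was the higher one, at 2098 ± 167 against 943 ± 77.7 or less, and lost its call after centring. Their median difference was -0.96 log2 units, and -1.82 after centring. HAND2 and GATA3, named after their values were seen, were not called. HAND2 stood at 11583 ± 772 in SK-N-AS and 6981 ± 636 to 11404 ± 309 elsewhere. GATA3 was lowest in SK-N-AS, at 1710.0 ± 89.7 against 2267 ± 111 to 3497 ± 101, with a gap to the nearest line under the fold threshold.

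**Figure D4:**
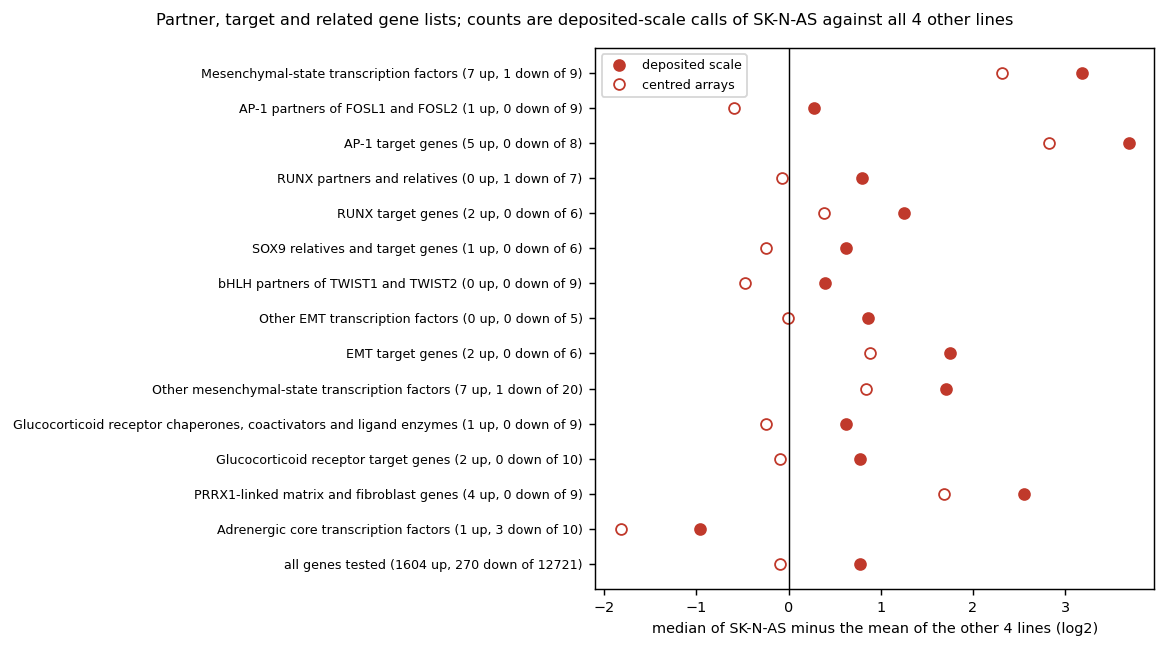
Median over the tested genes of each list drawn, cell type marker lists left out (vertical axis), of SK-N-AS minus the mean of the other 4 lines (horizontal axis, log2); filled points are the deposited scale, open points centred arrays, and the counts give genes called higher (up) or lower (down) than in all 4 other lines. The 9 tested mesenchymal-state factors (3.18) and the AP-1 targets (3.69) lie farthest right of the lists drawn and the adrenergic factors (-0.96) farthest left, with all tested genes at 0.77.

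Each factor had genes whose pattern over the 15 centred arrays was nearly the same. The measure is Pearson's r, and since arrays of 1 line are alike it mostly compares 5 line levels. PRRX1 was most like UXS1, ATOH8 and CEBPD (r = 0.98 each). FOSL1 was most like SHARPIN, MOCOS and HTRA1 (0.98 each), FOSL2 like GPNMB, BLVRB and BAG2 (0.99 each), and RUNX1 like LYPD6B, C3AR1 and PTGS2 (0.99 each). SOX9 was most like SHISA5, GPCPD1 and COPG1 (0.97 to 0.99), SNAI2 like UNC50, PSMD14 and ERO1B (0.98 to 0.99), TWIST2 like RBM47, CFI and MAGEA11 (0.99 or more), and NR3C1 like ADAM19, PRDX6 and ATP2B4 (0.99 each). TWIST1 was most like PHOX2A (0.996), followed by RUFY2 and DNAJC6 (0.99 each). The number of genes with r over 0.95 ran from 16 for SOX9 to 258 for TWIST2. Between the factors, r of TWIST1 with the other 8 tested ran from -0.92 with TWIST2 to -0.52 with SOX9, and r of SOX9 with SNAI2 was -0.24.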

How the data were processed

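Per the labels' protocols, 100 ng of total RNA was biotin-labelled with a 3′ kit. The values used are intensities as deposited by the authors, linear and single per probe set and array. The submitters' processing notes name MAS5, whose version and scaling were not given in the sources used here. Whether the ERCC probe sets set the scale is unknown. Genes were named through the platform annotation, and probe sets with several genes were left out. Values were taken as log2(intensity + 1). One model in limma 3.58.1 (R 4.3.3), with a mean for each line and an intensity-dependent prior variance, was fitted to all 15 arrays, for 12721 genes and for 29563 probe sets whose highest line mean reached 80.6 (6.35 on the log2 scale), with Benjamini-Hochberg adjustment within each of 10 contrasts. The number of arrays limits the precision. On simulated data the rule recovered 100% of 200 changes, of 1.5 or 3 log2 units, among 12721 genes and called 0 unchanged genes. There the changes were planted in SK-N-AS alone, all above the fold threshold. Every other gene had equal levels in all lines, with no shift between arrays. This checks that the rule runs as written and does not measure its error rates on the real data. Arrays of a line correlated at 0.993 or more, and 0 pairs were identical. The factors, gene lists and rules were chosen with earlier results of these data known. Of each list up to 4 called genes per direction are named, by their smallest gap, or 2 by size where none is called. Genes called after centring alone and untested genes were named after their values were seen. For each factor the 3 genes of highest correlation are named. Alternatives were the scale, pseudocount, floor, filter, prior, fold threshold, replicate block, probe set rule and single arrays left out.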

Additional observations from a re-analysis of the deposited data

How the results depend on the processing

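Differences between SK-N-AS and the nearest line were computed under 13 kinds of alternative and with each array left out. Of the 246 that could be computed, 243 kept their direction and their side of the threshold, and 0 reversed. Cases where a factor failed the filter are not among the 246. These are the dropouts of RUNX1, FOSL1 and TWIST2 given below. SNAI2 against NGP lost its call on centred arrays (0.87) and with quantile normalization (0.76), and SOX9 against BE(2)-C gained one without the fold threshold (0.45). Without the fold threshold, 1 factor, TWIST1, was highest in a line other than SK-N-AS, and 76 contrasts were called in place of 50. Over the other alternatives the factors higher in SK-N-AS numbered 6 to 8: RUNX2 entered with a pseudocount of 16, a floor at the 25th percentile or a probe set chosen by mean intensity (a rule added after seeing the data), RUNX2 replaced RUNX1 when all probe sets of a gene were averaged, FOSL1 left with a filter at the 75th percentile, and TWIST2 left without probe sets marked _s_at or _x_at. Leaving out 1 array at a time gave 6 to 7 factors higher, 1 lower, 0 highest in another line, 0 separating the MYCN classes, 46 to 51 called contrasts and 27 to 28 probe sets. Without any 1 of the SK-N-AS arrays RUNX1 dropped out, because another, dimmer probe set then had its highest mean. The replicate numbers did not pair the arrays: deviations of 30 same-numbered pairs correlated from -0.23 to 0.23 (median -0.04), 5 of them over 0.1, and 3 of 15 arrays were most like their own number. With the replicate block the counts stayed at 7, 1, 0, 0, 50 and 28. Signal over background limits the dim values: background control probe sets had medians of 15.8 to 19.0 on all arrays, so gaps to lines read near those values understate the fold, and centring moves such values by the array's shift.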
